A study of Mus musculus with 4 samples.

Results

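Granulocyte-monocyte progenitors that carry Elane and Mpo transcripts were examined in 4 droplet single-cell RNA libraries of sorted mouse bone marrow. A cell belonged to the group when its barcode held 500 to 7500 genes and under 10% mitochondrial UMIs (unique molecular identifiers, each counting 1 captured transcript), at least 5 Elane UMIs, at least 20 Mpo UMIs, no Cd79a UMI and under 20 S100a8 UMIs. These limits selected 1277 of the 37344 cells that passed the barcode filter. They were 256 of 8055 control cells, 477 of 9865 Ikk2-CA cells, 336 of 14156 Jak2 V617F cells and 208 of 5268 double-mutant cells. Since the cells were chosen by Elane, Mpo, Cd79a and S100a8, the levels of these 4 genes are descriptions of the choice.

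All mice carried Vav1-iCre on 1 allele, a recombinase driven by the Vav1 promoter in blood-forming cells, and the control mice carried no mutant allele. The Ikk2-CA mice also had 1 conditional allele of constitutively active Ikk2 (R26StopFLikk2ca). The Jak2 V617F mice had 1 conditional Jak2 V617F allele, and the double mutants had both. The design text adds a cis-NF-κBEGFP reporter to the crosses, without saying which of the pooled mice carried it. For each genotype, bone marrow of 5 mice aged 8 to 12 weeks was pooled into 1 library, after bead enrichment for Kit and sorting of the Lin-Sca-1+Kit+ (LSK) fraction. There was therefore 1 library per genotype. No difference between genotypes could be set against the spread between animals, no p-value is given, and every interval below is a 95% interval for counting error only.

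Granulocyte-monocyte progenitors give rise to neutrophils and monocytes. As they turn towards the neutrophil path they make the proteases and the peroxidase of the primary (azurophil) granules, with Cebpa, Cebpe and Gfi1 among the transcription factors of that path, while Irf8 and Klf4 act on the monocyte path. Ikk2 is the kinase that releases NF-κB from its inhibitor, and Jak2 V617F is the activated tyrosine kinase of myeloproliferative disease. Conventional granulocyte-monocyte progenitors carry little Sca-1, the surface protein used in the sort.

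The promoters of 5 genes are shown. The first 4 (Elane, Prtn3, Mpo and Ctsg) were lowest in the Ikk2-CA gate and the fifth, Nfkbia, was highest there. Elane and Mpo are gating genes, so their levels are a description of the choice. The sequences are from RefSeq, build GRCm38.p6, and run 5′ to 3′ on the strand of the gene from 250 bases before to 50 bases after its RefSeq start. The gene spans given with the results are those of the GENCODE annotation, whose starts can differ from RefSeq's, so the Prtn3 window lies inside the GENCODE span of that gene. Capitals in the first 4 mark GAGGAA, a core that PU.1 can bind, and capitals in the last mark an NF-κB type site (GGGA, any base, then TTTCC), found there on the reverse strand. The spans were chr10:79886062-79886361 (+ strand) for Elane, chr10:79879417-79879716 (+) for Prtn3, chr11:87793534-87793833 (+) for Mpo, chr14:56102525-56102824 (- strand) for Ctsg and chr12:55492598-55492897 (-) for Nfkbia.
Elane: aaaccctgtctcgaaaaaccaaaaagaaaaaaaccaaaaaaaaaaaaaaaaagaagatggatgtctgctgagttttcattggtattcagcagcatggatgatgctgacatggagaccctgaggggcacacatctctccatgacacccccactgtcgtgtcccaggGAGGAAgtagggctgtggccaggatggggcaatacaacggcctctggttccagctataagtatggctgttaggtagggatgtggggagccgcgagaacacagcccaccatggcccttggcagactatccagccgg
Prtn3: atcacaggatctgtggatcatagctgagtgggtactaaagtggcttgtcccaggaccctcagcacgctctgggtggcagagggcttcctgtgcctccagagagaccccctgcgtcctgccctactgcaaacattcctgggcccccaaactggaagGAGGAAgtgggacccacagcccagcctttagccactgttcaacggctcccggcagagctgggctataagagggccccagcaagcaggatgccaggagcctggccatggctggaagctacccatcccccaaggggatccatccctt
Mpo: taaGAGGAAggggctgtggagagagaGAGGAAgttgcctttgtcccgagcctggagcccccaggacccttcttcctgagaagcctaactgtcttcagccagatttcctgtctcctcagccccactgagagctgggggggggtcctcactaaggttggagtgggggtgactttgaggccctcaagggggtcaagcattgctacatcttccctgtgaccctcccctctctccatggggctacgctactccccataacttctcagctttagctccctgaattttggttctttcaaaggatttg
Ctsg: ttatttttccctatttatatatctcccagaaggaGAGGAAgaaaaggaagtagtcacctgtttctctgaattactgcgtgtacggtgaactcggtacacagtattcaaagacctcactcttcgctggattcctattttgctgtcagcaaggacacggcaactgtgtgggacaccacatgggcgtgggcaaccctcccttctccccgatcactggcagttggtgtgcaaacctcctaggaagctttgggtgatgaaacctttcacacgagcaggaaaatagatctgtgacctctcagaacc
Nfkbia: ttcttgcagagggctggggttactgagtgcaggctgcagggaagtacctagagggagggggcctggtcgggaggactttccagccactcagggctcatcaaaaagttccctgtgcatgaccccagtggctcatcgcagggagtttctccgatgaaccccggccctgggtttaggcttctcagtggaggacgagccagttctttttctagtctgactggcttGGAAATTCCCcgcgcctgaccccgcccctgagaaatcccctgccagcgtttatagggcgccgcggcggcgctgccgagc

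Both strands were searched. GAGGAA was present in all 4 granule promoters and in 28.3% of all 32851 promoters of that length, so a match is common. TTGCNNAA, a C/EBP type site, was in none of these 5 windows and in 10.8% of all promoters. Of the 20 primary granule genes listed, 18 had a promoter in the table, and 10 of them (55.6%) held GAGGAA, against 31.3% of all 27025 genes. The NF-κB type site was in 0.411% of all promoters, and in those of 4 of the 32 matched NF-κB target genes (12.5%), which were Cxcl2, Ltb, Nfkb2 and Nfkbia, against 0.466% of all genes. A looser NF-κB pattern (GGG, any 5 bases, then CC) and the RUNX type site TGTGGT were searched first, and were in 50.8% and 16.8% of all promoters. The narrower NF-κB pattern was chosen after these promoters and the expression values had been seen, so the matches describe the letters and support nothing further. No 2 of the 3 motifs reported overlapped in a window shown.

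The gated cells were among the deepest of each library. Their median was 29352.5 UMIs in control, 34676 in Ikk2-CA, 24551 in Jak2 V617F and 52026.5 in the double mutant, between 1.96 and 2.77 times the median of all kept cells of the same library. The summed UMIs behind the levels were 7404958, 17246897, 8661771 and 10921765 in that order. No gated cell shared its barcode with a gated cell of another library, while 12 to 60 barcodes of kept cells were shared by each pair of libraries. The pools differed in the share of gated cells with no UMI of Xist, which marks the silenced X of female cells, which was 32.8% in control, 72.3% in Ikk2-CA, 100% in Jak2 V617F and 76.4% in the double mutant.

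Markers that the gate did not use were also high in every library. Of the 10 granulocyte-monocyte progenitor markers, Elane and Mpo were gating genes. The other 8 were detected in each gate, at a summed 12539 CPM (UMIs scaled to a common total of 1000000 per gate) in control, 7045 in Ikk2-CA, 11628 in Jak2 V617F and 8999 in the double mutant, against 732.8 to 898.8 CPM in the other kept cells. Several of them go with Elane among cells, so their levels are a description too. The other kept cells here leave out cells with at least 20 S100a8 UMIs. They also leave out cells outside the gate with at least 3 Csf1r UMIs and no Cd79a UMI. In the S100a8 cells the 8 markers summed to 18514, 5091, 10892 and 11026 CPM in the same library order. In the Csf1r cells they summed to 3272, 1807, 2816 and 2196 CPM, so these markers were not particular to the gate. The 9 markers of mature neutrophils, which include the excluded gene S100a8, summed to 31.8 to 85.5 CPM in the gates. The 10 B cell markers summed to 35.1 to 61.3 CPM, against 90.8 to 1456 CPM in the other kept cells, with 1 to 5 of them at 0. They include the gating gene Cd79a, which is at 0 by the choice of cells, so this low sum follows in part from that choice. The 9 monocyte markers were all present, at a summed 1515, 1291, 1260 and 861 CPM. Ly6a, which encodes the Sca-1 of the sort, was at 12.4 CPM in the control gate against 113 CPM in the other control cells.

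Elane RNA was seen in few cells that should lack it. In B lineage cells (at least 3 Cd79a and 1 Ebf1 UMIs), thinned to 10000 UMIs each, Elane was seen in 7.07% of control, 4.71% of Ikk2-CA and 4.00% of Jak2 V617F cells and in 0 of 48 double-mutant cells, which allows a share of up to 6.25% (3 cells of 48). Mean Elane there was 1.36 UMIs per cell in control, carried by 7 of 99 cells, and 0 to 0.188 in the mutants. Gated cells held 49.5, 17.4, 46.1 and 22.6 UMIs, a description of the choice. The part of free RNA in cells near the limit of 5 Elane UMIs was not tested. Immunoglobulin RNA was seen in gated cells of every library, and most often in Ikk2-CA. Its source was not tested. Igkc was seen in 82.4% of thinned Ikk2-CA gated cells, against 12.8% in control, 2.40% in Jak2 V617F and 5.88% in the double mutant, and in 92.9% of the Ikk2-CA B lineage cells. The limit of no Cd79a UMI removed 60 Ikk2-CA cells, against 5, 4 and 1 in the other libraries.

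The share of cells inside the gate had no order that held across treatments of depth. With the limits in raw UMIs it was 3.18% (exact binomial interval 2.81 to 3.58%) in control, 4.84% (4.42 to 5.28%) in Ikk2-CA, 2.37% (2.13 to 2.64%) in Jak2 V617F and 3.95% (3.44 to 4.51%) in the double mutant. A deeper cell passes a limit in UMIs more easily, and the Ikk2-CA and double-mutant libraries were the deepest. For thinning to 10000 UMIs only kept cells of at least that depth were counted. These were 4435 of 8055 control, 8434 of 9865 Ikk2-CA, 7893 of 14156 Jak2 V617F and 4945 of 5268 double-mutant cells. Among them the shares were 5.01%, 3.76%, 3.79% and 2.57%, with control highest. The control and Jak2 V617F libraries thus lost a larger part of their kept cells, and the part of this in the order was not tested. With limits per 10000 UMIs of the cell the shares of all kept cells were 3.41%, 3.06%, 2.22% and 2.52%. Jak2 V617F was below control in every one of these counts. The double mutant was below control among thinned cells and with limits per 10000 UMIs. Thinning left out the shallow cells, and limits per 10000 UMIs left each cell at its own depth, so neither share is free of depth.

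**Figure D1:**
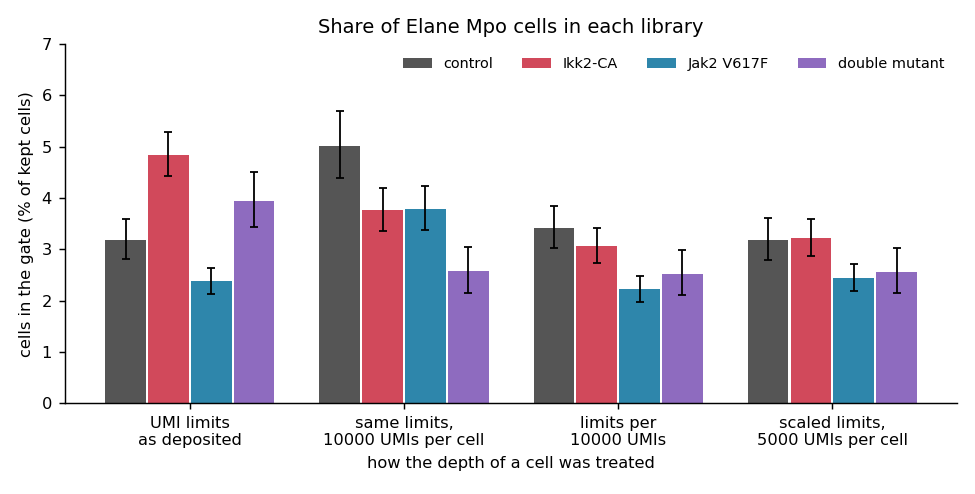
Cells in the gate as a percentage (y axis, from 0) in each of the 4 libraries under 4 treatments of depth (x axis). Bars show exact 95% binomial intervals for counting error. Where cells are not thinned, the percentage is of all kept cells. Thinned cells are counted only among kept cells at least as deep as the thinned depth, so the denominators differ between treatments. Ikk2-CA is highest with raw UMI limits (4.84%). Control is highest among kept cells of at least 10000 UMIs, each thinned to 10000 UMIs (5.01%).

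The gated cells held very different amounts of Elane, and this spread was not the same in the 4 libraries. As Elane is a gating gene, its spread is a description. The median gated cell held 46.3 Elane UMIs per 10000 in control, 8.09 in Ikk2-CA, 43.2 in Jak2 V617F and 10.5 in the double mutant. For Mpo the medians were closer, at 59.6, 35.9, 53.1 and 37.2 UMIs per 10000. Cells with under 10 Elane UMIs per 10000 were 16.0% of the control gate and 15.5% of the Jak2 V617F gate, but 55.8% of the Ikk2-CA gate and 49.5% of the double-mutant gate. Cells with 100 or more were 13.7% and 7.14% of the control and Jak2 V617F gates against 1.26% (6 cells) and 1.44% (3 cells) in the other 2 libraries. A deep cell can pass the gate at a lower Elane level, so the part of depth in this difference cannot be told apart here. Levels are therefore given below both for the whole gate and at a matched Elane level.

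**Figure D2:**
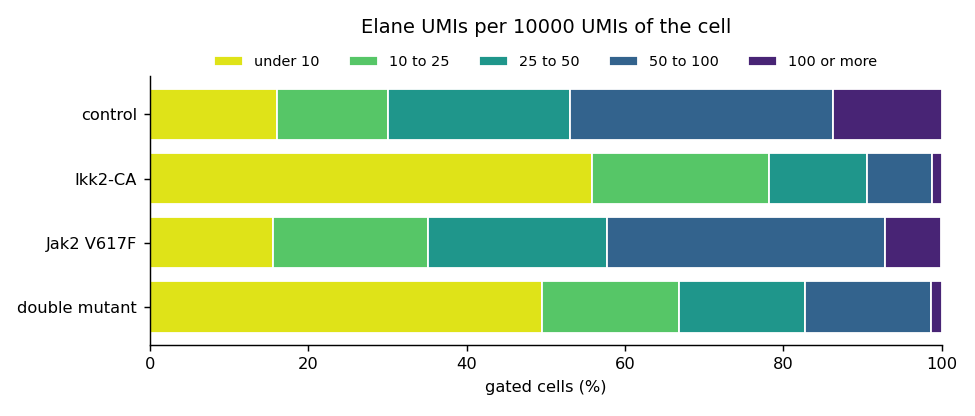
Gated cells of each library as stacked percentages (x axis) by their Elane UMIs per 10000 UMIs. The lowest class holds 16.0% of control, 55.8% of Ikk2-CA, 15.5% of Jak2 V617F and 49.5% of double-mutant gated cells.

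Cells just inside and just outside the Elane limit were much alike. In control, 13 cells with 5 to 6 Elane UMIs had a Prtn3 level of 2575 CPM and 23 cells with 3 to 4 Elane UMIs had 2192 CPM. In Ikk2-CA, 64 cells just inside stood at 2280 CPM and 95 cells just outside at 1784 CPM. The Jak2 V617F values were 2562 CPM in 11 cells and 2302 CPM in 36, and the double-mutant values 2184 CPM in 19 cells and 1823 CPM in 42. At the Mpo limit there were fewer cells: 9 control cells held 20 to 24 Mpo UMIs and 7 held 15 to 19, against 4 and 0 in Ikk2-CA, 1 and 3 in Jak2 V617F and 2 and 0 in the double mutant. Across gated cells of 1 library at 10000 UMIs each, Elane rank went with that of Prtn3 (Spearman's rho 0.65 to 0.79) and Ms4a3 (0.60 to 0.80), and Cebpe ran against Irf8 (-0.60 in control, -0.39 in Ikk2-CA, -0.51 in Jak2 V617F and -0.37 in the double mutant). These are descriptions over cells that share a library.

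Primary granule genes were lower in the Ikk2-CA gate than in control, close to control in Jak2 V617F, and in between in the double mutant. Prtn3 (proteinase 3, chr10:79874476-79883174 in GRCm38, just upstream of Elane at chr10:79886247-79888215) stood at 6477 CPM in control, 3755 in Ikk2-CA, 6143 in Jak2 V617F and 4471 in the double mutant. Ctsg (cathepsin G, chr14:56099881-56102574) followed the same order at 4429, 2607, 4040 and 3518 CPM. For Prtn3 the ratio to control was 0.580 (interval 0.573 to 0.587) in Ikk2-CA, 0.949 (0.937 to 0.960) in Jak2 V617F and 0.690 (0.682 to 0.699) in the double mutant. The gating genes themselves were at 5165, 1780, 4418 and 2273 CPM for Elane and 5940, 3857, 5152 and 4162 CPM for Mpo, given as a description.

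Differences between libraries were wider for other granule and membrane genes of the list. Ms4a3, a membrane protein of these progenitors, was at 1031 CPM in control, 343 in Ikk2-CA, 960 in Jak2 V617F and 623 in the double mutant. Cd63, a granule membrane tetraspanin, was at 421, 81.9, 379 and 158 CPM, a ratio to control of 0.195 (0.183 to 0.207) in Ikk2-CA and 0.375 (0.354 to 0.398) in the double mutant. Nkg7, a granule protein, was at 627, 217, 517 and 327 CPM, and Clec12a, an inhibitory lectin receptor, at 436, 164, 336 and 203 CPM. In each of these genes Ikk2-CA was lowest and control highest. Some members did not follow: Lyz2 (lysozyme) was at 193, 240, 175 and 224 CPM, Igfbp4 at 360, 363, 330 and 400 CPM, and Calr (calreticulin) at 2409, 1753, 2428 and 2207 CPM.

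Of the 20 primary granule genes listed, 16 were measured, which means at least 10 CPM in any of the 4 gates and no part in the gating. A gene can pass this limit through the library where it is high, so the counts for this and the other lists describe the measured members. The share of all genes set beside a count needs 10 CPM in a library of that comparison, so some counted members lie outside it. Of the 16, 6 were at least 2-fold lower in Ikk2-CA than in control and none was 2-fold higher, where 2.04% of the 7501 genes reaching 10 CPM in at least 1 of the libraries compared were at least 2-fold lower and 1.88% higher. In Jak2 V617F none of the 16 passed 2-fold, beside 0.316% lower and 0.408% higher of 7605 genes. In the double mutant 2 were 2-fold lower, beside 1.78% lower and 0.877% higher of 7412 genes. The median log2 ratio of the list was -0.77, -0.14 and -0.53, where the median gene stood at -0.14, 0.01 and -0.14. Relative to that median gene, 158 genes (2.11%) were at least 2-fold higher and 115 (1.53%) lower in Ikk2-CA, against 141 and 153 as measured, and 95 (1.28%) were higher and 82 (1.11%) lower in the double mutant, against 65 and 132. The 3 comparisons share the control library. At control's distribution of Elane (levels averaged over 5 Elane classes with the share of control cells in each) the list medians were -0.32, -0.02 and -0.04. Elane is itself a primary granule gene whose level goes with the list among cells, so a smaller difference at matched Elane says nothing of its cause. The class of 100 or more, with 13.7% of the weight, held 6 Ikk2-CA and 3 double-mutant cells. Over the 4 classes under 100 alone the list medians were -0.31, 0.02 and -0.08. The Cd63 log2 ratio in Ikk2-CA was -1.14 over all 5 classes and -1.78 over those 4, and that of Ms4a3 was -0.51 and -0.53.

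Cebpe and Gfi1, factors of the neutrophil path, had the order of the granule genes, and Cebpa did not. Cebpe (C/EBP epsilon, chr14:54710360-54712174), which acts in granulocyte maturation, was at 131 CPM in control, 41.5 in Ikk2-CA, 98.5 in Jak2 V617F and 45.0 in the double mutant. Gfi1 (chr5:107716657-107726036), a repressor that favours the neutrophil path, was at 54.6, 20.8, 46.9 and 31.5 CPM. Cebpa, required to form these progenitors, was at 98.6, 55.2, 66.7 and 75.8 CPM, so Jak2 V617F was below the double mutant. For Cebpe the ratio to control was 0.317 (0.288 to 0.350) in Ikk2-CA and 0.344 (0.308 to 0.383) in the double mutant, which did not differ from each other beyond counting error (double mutant over Ikk2-CA 1.08, 0.963 to 1.22). For Gfi1 the double mutant was above Ikk2-CA at a ratio of 1.52 (1.30 to 1.76).

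Shares of cells showed the same order. After thinning to 10000 UMIs, which left out 22 control, 1 Ikk2-CA, 3 Jak2 V617F and 4 double-mutant gated cells, Cebpe was seen in 48.3%, 21.2%, 45.3% and 27.9% of cells, against 0 to 1.01% of B lineage cells. Gfi1 was seen in 36.3%, 18.3%, 31.8% and 25% of cells, but also in 6.25 to 11.1% of B lineage cells. Cells with a UMI of Gfi1 or Cebpe and of neither Irf8 nor Klf4 were 40.2% of the control gate, 14.7% of Ikk2-CA, 36.0% of Jak2 V617F and 28.9% of the double mutant. Cells with only Irf8 or Klf4 were 34.2%, 55.7%, 32.4% and 37.3%. Cells with neither pair were 5.56%, 11.1%, 9.91% and 20.6%, the highest share being in the double mutant.

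Within cells of 50 to 100 Elane UMIs per 10000 (85 control, 39 Ikk2-CA, 118 Jak2 V617F and 33 double-mutant cells), Cebpe was at 196 CPM (179 to 213), 117 CPM (101 to 136), 149 CPM (135 to 164) and 121 CPM (105 to 139). In this class the intervals of all 3 mutants lay below that of control. This did not hold in every class. In cells of 25 to 50 Elane UMIs per 10000, Cebpe was at 91.6 CPM (78.3 to 107) in control, 63.3 CPM (53.3 to 74.7) in Ikk2-CA, 105 CPM (91.6 to 120) in Jak2 V617F and 80.6 CPM (68.6 to 94.1) in the double mutant. At 100 or more, the 6 Ikk2-CA cells were at 253 CPM (189 to 333) and the 35 control cells at 217 CPM (187 to 249). In the class of 50 to 100, Gfi1 was at 64.2 CPM (54.8 to 74.7), 28.4 CPM (20.5 to 38.2), 69.4 CPM (60.2 to 79.7) and 49.5 CPM (39.2 to 61.7), with the Ikk2-CA interval below the other 3. Under 10 Elane UMIs per 10000, Gfi1 was at 24.3 CPM (15.9 to 35.6) in control and 17.5 CPM (15 to 20.5) in Ikk2-CA, where the intervals overlapped. Over the whole gate at control's Elane distribution the Ikk2-CA log2 ratio was -0.42 for Cebpe and -0.85 for Gfi1, compared with -1.66 and -1.39 as summed, and without the class of 100 or more it was -0.68 and -0.91.

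**Figure D3:**
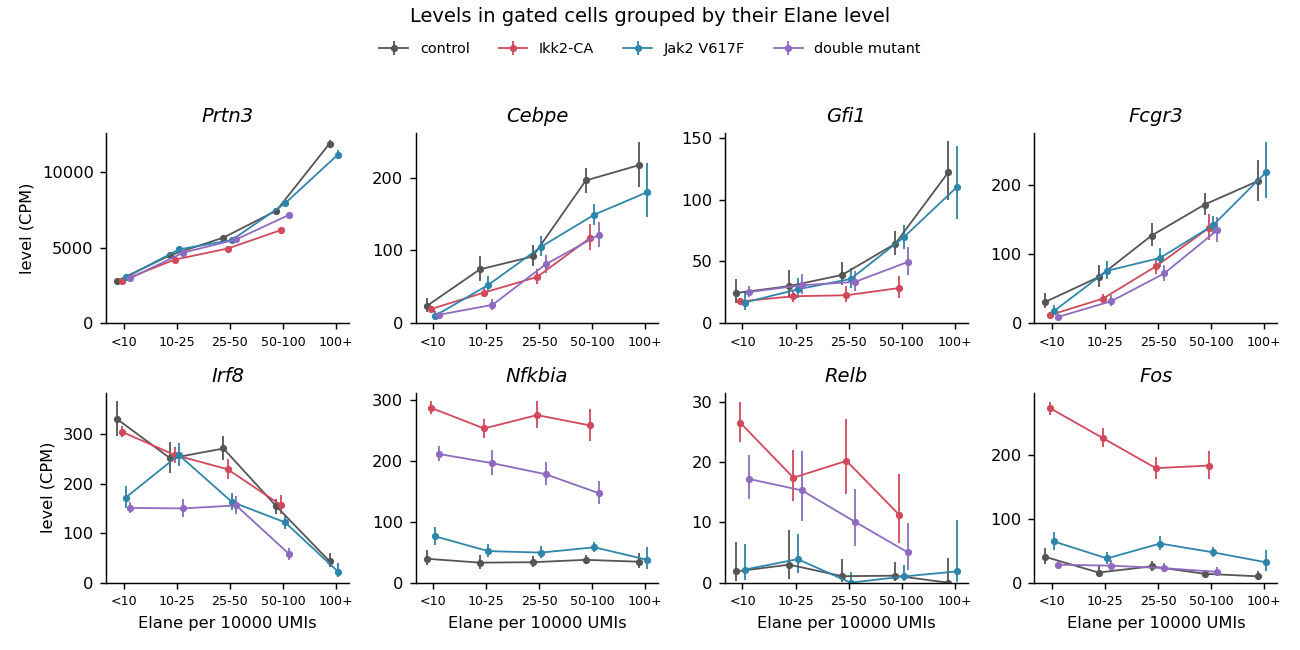
Levels in CPM (y axis, from 0) of 8 genes in gated cells grouped by Elane UMIs per 10000 (x axis), by library, with exact 95% Poisson intervals; classes with under 20 cells are not drawn. Prtn3, Cebpe and Fcgr3 are higher in each class of higher Elane in every library, while Nfkbia is at 258 to 287 CPM in Ikk2-CA and 33.6 to 39.3 CPM in control in the classes under 10, 25 to 50 and 50 to 100.

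Of the 13 measured genes of the neutrophil path list, all 13 were below control in Ikk2-CA, where 32.7% of all genes compared were above it, and 6 were at least 2-fold lower, with a median log2 ratio of -0.99. The median was -0.21 in Jak2 V617F with none past 2-fold, and -0.59 in the double mutant with 4 at least 2-fold lower. Of all genes compared, 2.04% were at least 2-fold lower in Ikk2-CA and 1.78% in the double mutant. Dstn, an actin-severing protein, was at 283, 69.9, 211 and 119 CPM. Gstm1, a glutathione transferase of the neutrophil path, was at 278, 97.5, 296 and 108 CPM, so Jak2 V617F stood with control and the double mutant with Ikk2-CA. At control's Elane distribution the list medians were -0.42, -0.06 and -0.29. Over all alternatives tried the Ikk2-CA median ran from -1.14 to -0.42.

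**Figure D4:**
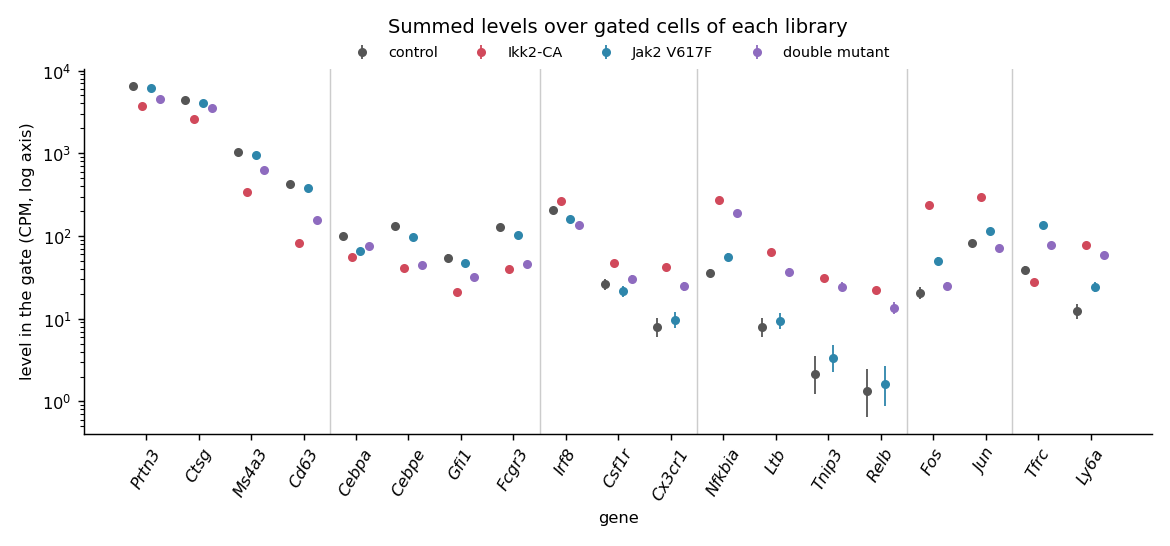
Levels in CPM (y axis, log scale) of 19 genes summed over the gated cells of each library, with exact 95% Poisson intervals; vertical lines separate granule genes, neutrophil path factors with the receptor Fcgr3, monocyte path genes, NF-κB targets, immediate early genes and 2 other genes. Ikk2-CA is lowest for Cebpe (41.5 CPM) and highest for Nfkbia (274 CPM) and Fos (239 CPM).

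Most genes of the monocyte path were higher in the Ikk2-CA gate than in control and lower in the double mutant. Irf8, the transcription factor of the monocyte and dendritic path, was at 208 CPM in control, 268 in Ikk2-CA, 162 in Jak2 V617F and 136 in the double mutant. Csf1r, the receptor for M-CSF, was at 26.1, 46.8, 21.4 and 30.5 CPM. The chemokine receptor Cx3cr1 was at 7.97, 41.6, 9.70 and 24.7 CPM, a ratio to control of 5.22 (4.00 to 6.93) in Ikk2-CA and 3.10 (2.33 to 4.19) in the double mutant. Klf4, which acts with Irf8, was at 8.10, 11.2, 5.54 and 1.83 CPM. Not every member was higher in Ikk2-CA: Ly6c2, a surface antigen of monocytes, was at 928, 577, 815 and 422 CPM, lowest in the double mutant.

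Of 15 measured monocyte path genes, 13 were above control in Ikk2-CA and 3 of them at least 2-fold, with a median log2 ratio of 0.36, while in Jak2 V617F 2 were above control (median -0.26, none past 2-fold), where 52.2% of all genes were. In the double mutant 4 were above control, beside 33.9% of all genes, and the median was -0.54, with 3 at least 2-fold lower and 1, Cx3cr1, at least 2-fold higher. Of all genes compared in Ikk2-CA, 32.7% were above control and 1.88% at least 2-fold higher. The double-mutant shares were 1.78% at least 2-fold lower and 0.877% higher. At control's Elane distribution the list medians were 0.01, -0.34 and -0.51, so the Ikk2-CA median was near 0 at matched Elane and the double-mutant median was not. Without the class of 100 or more they were -0.02, -0.38 and -0.78. Irf8 itself had a log2 ratio of -0.10 in Ikk2-CA and -1.05 in the double mutant there. Set directly against Ikk2-CA, the double mutant had 0 of the 15 genes above it and 2 at least 2-fold lower (Klf4 and Mpeg1, a pore-forming protein of macrophages), with a median of -0.75, where 50.4% of 7120 genes were above Ikk2-CA, 0.899% at least 2-fold lower and 0.197% higher. Irf8 in the double mutant was below control in the lowest Elane class too, at 151 CPM (141 to 162) against 330 CPM (296 to 366). In the class of 50 to 100 it was 57.7 CPM (46.5 to 70.7) against 154 CPM (139 to 169).

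Other myeloid transcription factors varied less. Spi1, which encodes PU.1, was at 211, 269, 199 and 247 CPM in the control, the 2 single mutants (Ikk2-CA first) and the double mutant, and Zeb2 at 179, 198, 163 and 124 CPM. Myb, a factor of immature progenitors, was at 425, 243, 450 and 244 CPM, so the 2 libraries with Ikk2-CA stood together at ratios to control of 0.572 (0.546 to 0.599) and 0.574 (0.545 to 0.605). Myc was highest in Jak2 V617F, at 163 CPM against 108 in control, 106 in Ikk2-CA and 114 in the double mutant. Of 19 measured factors 3 were 2-fold lower and 1 (Egr1) 2-fold higher in Ikk2-CA, 1 (Egr1) was higher in Jak2 V617F and 2 were lower in the double mutant. Of all genes compared, 2.04% were 2-fold lower and 1.88% higher in Ikk2-CA, 0.408% higher in Jak2 V617F and 1.78% lower in the double mutant. Egr1 in control and Jak2 V617F lay under 10 CPM, as did Klf4, counted as lower, in control and the double mutant. Neither was thus among all genes compared there.

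Among receptors, Fcgr3 (the low-affinity IgG receptor CD16, chr1:171051174-171064935), part of the surface definition of these progenitors, was at 130 CPM in control, 39.8 in Ikk2-CA, 102 in Jak2 V617F and 45.3 in the double mutant. Its Ikk2-CA ratio of 0.305 (0.276 to 0.337) on the log2 scale was -1.71, and -0.32 at control's Elane distribution, or -0.50 without the class of 100 or more. The interferon gamma receptor chain Ifngr1 was at 287, 125, 221 and 155 CPM. Csf3r, the G-CSF receptor, was at 36.7, 34.3, 41.2 and 31.3 CPM, with ratio intervals in Ikk2-CA (0.807 to 1.08) and Jak2 V617F (0.956 to 1.32) that held 1. Kit was highest in Jak2 V617F at 109 CPM, against 75.1 in control, 77.1 in Ikk2-CA and 65.6 in the double mutant. Cd34 differed least, at 246, 215, 233 and 221 CPM. Of 16 receptors, 3 were 2-fold lower in Ikk2-CA (Fcgr3, Ifngr1 and Clec12a, which the granule list also holds), none passed 2-fold in Jak2 V617F and 2 (Fcgr3 and Clec12a) were lower in the double mutant, beside 2.04% and 1.78% of all genes that were lower in Ikk2-CA and the double mutant.

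Ly6a was higher in all 3 mutants, at 77.9 CPM in Ikk2-CA, 24.2 in Jak2 V617F and 58.3 in the double mutant against 12.4 in control. Sca-1 is a sort marker, and the gated cells stayed below the other cells of their own library, which were at 113, 248, 144 and 202 CPM in the order of the libraries above. After thinning, a Ly6a UMI was seen in 8.12% of control, 45.0% of Ikk2-CA, 15% of Jak2 V617F and 38.2% of double-mutant gated cells. The part of Ly6a, through the sort, in the share of gated cells was not tested.

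NF-κB target genes were higher in the Ikk2-CA gate than in control, and less so in the double mutant. Nfkbia, the feedback inhibitor of NF-κB (chr12:55489410-55492647), was at 35.8 CPM in control, 274 in Ikk2-CA, 56.3 in Jak2 V617F and 192 in the double mutant. Its ratio to control was 7.67 (6.77 to 8.71), 1.57 (1.35 to 1.84) and 5.37 (4.73 to 6.13). A Nfkbia UMI was seen in 32.5%, 87.6%, 41.1% and 78.9% of thinned gated cells. It was also frequent in B lineage cells (40.4%, 74.0%, 36.0% and 47.9%).

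The subunit Relb (chr7:19606217-19629438) was at 1.35, 22, 1.62 and 13.6 CPM, and the subunit precursor Nfkb2 at 3.78, 18.9, 5.89 and 11.5 CPM. The ubiquitin-editing inhibitor Tnfaip3 was at 2.03, 16.1, 2.42 and 6.78 CPM, and Tnip3, which belongs to a family of proteins that bind Tnfaip3, at 2.16, 30.7, 3.35 and 24.4 CPM. Ltb, the lymphotoxin beta chain, was at 7.97, 64.9, 9.47 and 37.1 CPM. In each of these 5 genes the order was Ikk2-CA, double mutant, Jak2 V617F and control. The double mutant was below Ikk2-CA, with ratios of 0.701 (0.666 to 0.738) for Nfkbia, 0.621 (0.510 to 0.752) for Relb and 0.422 (0.322 to 0.547) for Tnfaip3. Outside the gate the Tnip3 levels lay closer together, at 31.8, 48.0, 26.8 and 58.4 CPM.

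The chemokines of the list split the 2 libraries with Ikk2-CA. Ccl5 was at 1.49 CPM in control, 48.4 in Ikk2-CA, 4.50 in Jak2 V617F and 10.6 in the double mutant. Ccl4 was at 5.13, 40, 9.24 and 3.48 CPM, so the double mutant was at 0.0870 (0.0610 to 0.121) of the Ikk2-CA level and did not differ from control beyond counting error (0.678, 0.421 to 1.09). Ccl3 was at 6.35, 28.7, 6.58 and 3.11 CPM. In the 3 genes Ikk2-CA stood furthest above control. With cells thinned to 10000 UMIs the double mutant's Ccl3 log2 ratio to control was 0.13, so its lower level there did not hold.

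Of 32 measured NF-κB targets, 14 were at least 2-fold higher in Ikk2-CA and none lower, 3 were higher in Jak2 V617F, and 9 were higher and 1 (Ccl3) lower in the double mutant. Of all genes, 1.88%, 0.408% and 0.877% were 2-fold higher in these comparisons. Some counted members were under 10 CPM in both libraries compared, and so not among all genes there. They include Ccl5 in Jak2 V617F against control and Ccl3 in the double mutant against control. The Ccl5 log2 ratio of Jak2 V617F was -1.35 without the highest doublet scores. Members such as Relb and Tnfaip3 reached 10 CPM only in libraries where they were high. The counts therefore follow in part from that limit and describe the measured members only. The medians of the list were 0.76, 0.23 and 0.11, and 0.90 and 0.25 above the median gene in Ikk2-CA and the double mutant. At control's Elane distribution they were 0.84, 0.19 and 0.07. In cells of 50 to 100 Elane UMIs per 10000, Nfkbia was at 37.5 CPM (30.4 to 45.8) in control, 258 CPM (233 to 285) in Ikk2-CA, 58.1 CPM (49.7 to 67.5) in Jak2 V617F and 147 CPM (129 to 167) in the double mutant. Counting members of at least 50 CPM only, the Ikk2-CA median was 0.06.

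Ehd3 (chr17:73804134-73832094), an endocytic trafficking protein, had the highest Ikk2-CA ratio to control among genes with at least 20 CPM and 50 UMIs in either gate. It had 1 UMI in the control gate (0.135 CPM) against 565 in Ikk2-CA (32.8 CPM), 4 in Jak2 V617F (0.462 CPM) and 169 in the double mutant (15.5 CPM). The ratio was 243 in Ikk2-CA, with a counting interval of 43.4 to 9598. An Ehd3 UMI was seen in 27.1% of thinned Ikk2-CA gated cells and 13.2% of double-mutant cells, against 0.427% of control and 0.300% of Jak2 V617F cells.

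Immediate early genes, which cells switch on within minutes of a stimulus, were highest in the Ikk2-CA gate and at control levels in the double mutant. Fos was at 20.4 CPM in control, 239 in Ikk2-CA, 50.5 in Jak2 V617F and 24.9 in the double mutant. Fosb was at 6.48, 60.4, 20.4 and 9.06 CPM and Jun at 81.4, 297, 116 and 71.8 CPM. For Fos the ratio to control was 11.7 (9.97 to 13.9) in Ikk2-CA and 2.47 (2.05 to 3.00) in Jak2 V617F, while in the double mutant it was 1.22 (0.997 to 1.5), with 1 inside the interval. The phosphatase Dusp1 was at 11.2, 104, 17.7 and 22.6 CPM, and the RNA-binding protein Zfp36, which shortens the life of cytokine transcripts, at 14.0, 74.9, 35.0 and 17.9 CPM. Egr1, a zinc finger factor, was at 2.70, 17, 8.89 and 1.56 CPM.

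Of 13 measured immediate early genes, all 13 were above control in Ikk2-CA, 11 at least 2-fold. All 13 were above control in Jak2 V617F, 4 at least 2-fold, and 9 in the double mutant, 1 (Dusp1) at least 2-fold. Of all genes compared, 32.7%, 52.2% and 33.9% were above control in Ikk2-CA, Jak2 V617F and the double mutant. At least 2-fold higher were 1.88%, 0.408% and 0.877%. The list medians were 2.0, 0.58 and 0.10, and 1.81, 0.57 and -0.07 at control's Elane distribution. Against Ikk2-CA the double mutant had a list median of -2.05, with none of the 13 above it and 10 at least 2-fold lower. In that comparison 50.4% of all genes were above Ikk2-CA and 0.899% at least 2-fold lower. Immediate early genes also respond to tissue handling before lysis, and each genotype was handled in 1 pool, so handling and genotype cannot be told apart. The rest of each library moved with the gate: Fos outside the gate was at 58.5, 427, 182 and 59.0 CPM.

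**Figure D5:**
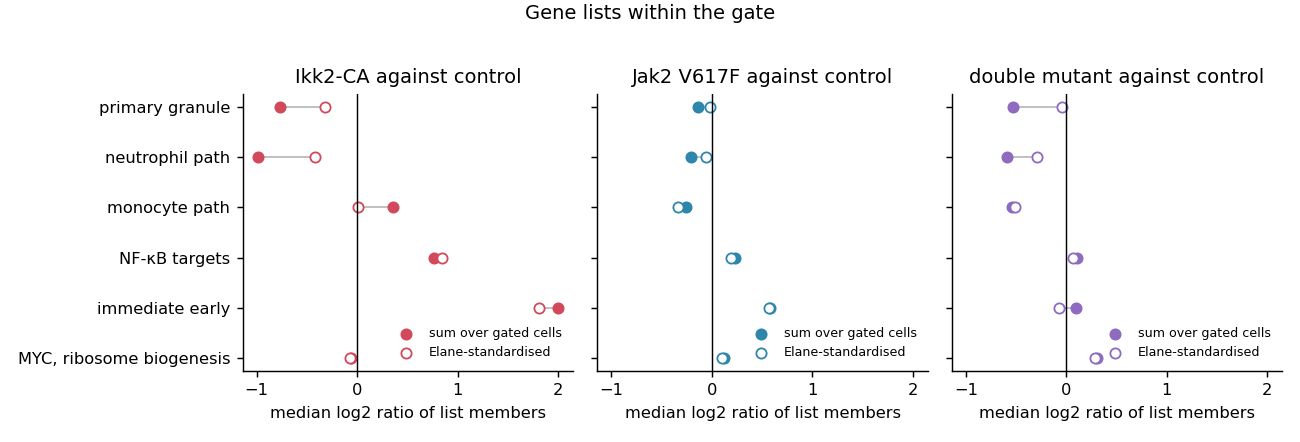
Median log2 ratio to control (x axis) of the members of 6 gene lists in each mutant gate, as summed over gated cells (filled) and at control's Elane distribution (open). In Ikk2-CA the granule median goes from -0.77 to -0.32 and the neutrophil path median from -0.99 to -0.42, while the NF-κB median goes from 0.76 to 0.84.

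The Jak2 V617F gate was the nearest to control, with 31 genes at least 2-fold higher and 24 lower. The highest ratio among genes with at least 20 CPM and 50 UMIs in either gate was that of Tfrc, the transferrin receptor, at 136 CPM against 38.9 in control, 27.7 in Ikk2-CA and 78.0 in the double mutant. Its ratio to control was 3.5 (3.08 to 4.0) in Jak2 V617F and 2.01 (1.75 to 2.30) in the double mutant, and in the other cells of the libraries it was 21.3, 43.8, 32.1 and 25 CPM. The summed erythroid markers, of which Tfrc is 1, were 52.9 CPM in the control gate, 613 in Ikk2-CA, 162 in Jak2 V617F and 92.8 in the double mutant. In Ikk2-CA Hbb-bs, a beta globin, gave 321 CPM of that sum against 2.30 CPM in control, 4.39 in Jak2 V617F and 4.67 in the double mutant. A Hbb-bs UMI was seen in 12.4% of thinned Ikk2-CA gated cells and in 15.6% of its B lineage cells, which should lack it.

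Genes linked to JAK-STAT signalling differed little as a list. Of 13 measured, none was past 2-fold in Jak2 V617F (median 0.18), 1 was higher in Ikk2-CA (median -0.16), and 1 was higher and 1 lower in the double mutant (median -0.15). Of all genes compared, 1.88% were at least 2-fold higher in Ikk2-CA, and 0.877% were higher and 1.78% lower in the double mutant. Stat3 was at 33.5 CPM in control, 27.5 in Ikk2-CA, 56.1 in Jak2 V617F and 25.2 in the double mutant. The cyclin Ccnd1 was the member above 2-fold, at 11.7, 39.9, 19.9 and 31.1 CPM. Serpina3g, a serine protease inhibitor, was higher in all 3 mutants, at 28.8 CPM in control, 73.0 in Ikk2-CA, 70.7 in Jak2 V617F and 82.7 in the double mutant.

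In the double mutant, MYC targets and ribosome biogenesis genes were above the median gene. Of 26 measured, 21 were above control, beside 33.9% of all genes compared, none past 2-fold, with a median log2 ratio of 0.30 against -0.06 in Ikk2-CA and 0.12 in Jak2 V617F. Ncl (nucleolin) was at 1251 CPM in control, 1146 in Ikk2-CA, 1517 in Jak2 V617F and 1724 in the double mutant. The lowest member was Polr1b, a subunit of RNA polymerase I, at 23.1, 13.2, 23.2 and 12.5 CPM. The list median stayed between 0.23 and 0.48 under the alternatives tried. Cell cycle lists differed less, with S phase medians of -0.14, 0.06 and -0.05 and G2/M medians of -0.16, -0.24 and -0.14 in Ikk2-CA, Jak2 V617F and the double mutant.

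Antigen presentation genes had a median log2 ratio of 0.50 in Ikk2-CA (3 of 15 at least 2-fold higher), 0.06 in Jak2 V617F (1 higher) and 0.27 in the double mutant (2 higher). The shares of all genes at least 2-fold higher were 1.88%, 0.408% and 0.877% in these comparisons. Cd74, the invariant chain of MHC class II, was at 6.21, 45.6, 6.93 and 17.2 CPM, and in the other cells at 143, 645, 117 and 242 CPM. With cells thinned to 10000 UMIs the Cd74 log2 ratio of the double mutant to control was -0.35. The gated cells were thus far below their libraries, and the part of free RNA in the Cd74 difference was not tested. Interferon-stimulated genes (7 measured) had medians of 0.18, 0.03 and 0.05, and chaperones and genes of the unfolded protein response (22 measured) of -0.15, -0.05 and -0.26, none of the latter past 2-fold.

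Further genes with the widest ratios fell outside these lists. Hist1h2ap, a replication-dependent histone, was at 78.2 CPM in control, 680 in Ikk2-CA, 254 in Jak2 V617F and 159 in the double mutant. It has near-identical copies, so reads may be split between them. Rgs1, which dampens G protein signalling, was at 8.10, 38.0, 25.5 and 9.34 CPM, high in both single mutants. B4galt6, a glycosyltransferase, was at 48.3, 8.06, 49.1 and 13.1 CPM and the proteoglycan Gpc1 at 29.7, 7.36, 28.9 and 5.22 CPM, so both were low in the 2 libraries with Ikk2-CA. Gpc1 had a ratio to control of 0.248 (0.198 to 0.310) in Ikk2-CA and 0.176 (0.129 to 0.236) in the double mutant. Prg2, an eosinophil granule protein, was at 51.3, 36.2, 22.9 and 0.549 CPM. The Prg2 log2 ratio of Jak2 V617F to control, -1.17, was 3.22 in cells with no Xist UMI and 1.06 averaged over cells, and that of Ikk2-CA, -0.50, was 4.41 and 0.31. The summed markers of mast cells, basophils and eosinophils were 260.6, 148.5, 146.4 and 137.1 CPM in the same order.

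Of the genes that the mutant alleles are named for, Ikbkb, which encodes Ikk2, was at 50.9 CPM in control, 48.6 in Ikk2-CA, 60.4 in Jak2 V617F and 46.8 in the double mutant, and Jak2 at 13.8, 8.87, 12.1 and 6.50 CPM. UMIs near the 3′ end do not read the V617F change, so these levels do not check the Jak2 labels. It is not known here whether transcripts of the R26StopFLikk2ca allele are counted as Ikbkb. The Ikbkb levels therefore do not check the Ikk2-CA labels either.

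Thy1, a surface glycoprotein, had 1 UMI in the control gate and stood at 0.135 CPM, against 19.6 in Ikk2-CA, 1.15 in Jak2 V617F and 33.6 in the double mutant. The ratio was 249 (44.4 to 9855) in the double mutant and 145 (25.9 to 5749) in Ikk2-CA, and the double mutant was above Ikk2-CA at 1.71 (1.48 to 1.99). Of all genes compared in the gate, 14 were at least 2-fold higher and 64 lower in the double mutant than in Ikk2-CA, and 58 were higher and 137 lower than in Jak2 V617F, which is 0.773% and 1.83% of 7506 genes. Relative to the median gene, which stood at -0.15 in the latter comparison, these were 69 (0.919%) and 80 (1.07%).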

How the data were processed

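The 4 libraries hold UMI counts per gene and cell barcode for 32285 genes, deposited as raw counts without normalization. Alignment and counting used Cell Ranger, version 3.0.1 per the series design text and 4.0.0 per the file headers. The submitters' processing notes name mm10 and Seurat 4.0.0. How Cell Ranger called cells is not given in the sources used here. Antibody tags were not used here.

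The gate was applied in Python 3.11.15 (numpy 2.4.6, scipy 1.17.1, pandas 2.3.3) to 41674 barcodes, of which 37344 were kept. UMIs were summed over the gated cells of each library and divided by the sum, as UMIs per 1000000 (CPM). Depth per library was 7404958 to 17246897 gated UMIs. Levels have exact Poisson intervals, shares exact Clopper-Pearson intervals and ratios exact conditional binomial intervals, all at 95% and for counting error only. A gene with no UMI was put at a floor of 3 UMIs per library for ratios. With 1 library of 5 pooled mice per genotype there was no test, and libraries were grouped by the genotype in their labels. A gene was compared where either library reached 10 CPM, and 2-fold was the limit for a call. The comparison was checked on simulated data with known folds.

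Doublets were scored with Scrublet (scanpy 1.11.5). Its automatic threshold marked cells in 2 libraries only, 255 in Ikk2-CA and 3 in the double mutant, so it had not worked in the others, and no cell was removed for it. An alternative left out the highest scores, at 0.8% per 1000 barcodes. These were 5.86% of the control gate, 5.45% of Ikk2-CA, 22.3% of Jak2 V617F and 1.92% of the double mutant. Of all kept cells they were 7.96%, 8.26%, 12.5% and 4.61%. Without them the Jak2 V617F median log2 ratio was 0.36 for immediate early genes, against 0.58 as measured. For the neutrophil path it was -0.05, against -0.21. Other alternatives thinned the cells, changed the limits, took edgeR 4.0.16 TMM or DESeq2 1.42.0 median-of-ratios factors, changed the filter on low values, kept cells with no Xist UMI, or averaged over cells. Matching the cells by Elane (over 5 classes, or over the 4 under 100 per 10000 UMIs), and using the looser gates for gene ratios, were added after the data had been seen.

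The members, gene lists, marker lists and alternatives were chosen with earlier results of these data known. The genes eligible for naming were those of at least 20 CPM and 50 UMIs in either library with the 12 highest and 12 lowest ratios to control, or the 6 highest and 6 lowest of the double mutant against each single mutant. Up to 5 members per list with the largest log2 ratio, all granule, transcription factor and receptor list members, and the markers were also eligible. The ranking left out antigen receptor, sex-linked, unnamed, mitochondrial and ribosomal protein genes. Only some of the eligible genes are named. Fosb, Jun, Dusp1, Zfp36, Nfkb2, Tnfaip3, Polr1b, Ncl, Stat3 and other list members beyond these ranks were named after their values had been seen.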

Additional observations from a re-analysis of the deposited data

Results flagged for a closer look

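Jak2 V617F was present both without Ikk2-CA (Jak2 V617F against control) and with it (double mutant against Ikk2-CA), and the results here went opposite ways in these 2 comparisons. The difference between the comparisons was not tested, since each rests on 1 library per genotype. The median log2 ratio of the immediate early genes was 0.58 without Ikk2-CA and -2.05 with it. Fos had a log2 ratio of 1.31 without Ikk2-CA and -3.26 with it, and Fosb of 1.66 and -2.74. Zfp36 stood at 1.32 and -2.07, and Rgs1 at 1.65 and -2.03. Hist1h2ap had a log2 ratio of 1.70 without Ikk2-CA and -2.10 with it. In all 6 results the Ikk2-CA gate held the highest level of the 4 libraries.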

How the results depend on the processing

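No paired analysis was possible because each genotype has 1 library and no label pairs the libraries. With 1 library per genotype, no alternative can separate genotype from pool, sort or library, and the intervals hold no spread between mice. Depth bears on the gate, since its limits are in UMIs and the gated double-mutant cells were the deepest.

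The share of cells in the gate moved with the limits. Shares of thinned cells were counted only among kept cells at least as deep as the thinned depth. Thinning to 10000 UMIs gave 5.01% in control, 3.76% in Ikk2-CA, 3.79% in Jak2 V617F and 2.57% in the double mutant. Thinning to 5000 UMIs gave 3.22% in Ikk2-CA and 2.56% in the double mutant, and limits per 10000 UMIs gave 3.06% and 2.52%. Stricter limits (10 Elane and 40 Mpo UMIs) gave 2.68%, 3.62%, 2.12% and 3.15% in the 4 libraries, and looser ones (3 and 10 UMIs) 3.75%, 5.96%, 2.73% and 4.82%. Control was at 3.59% with no S100a8 limit, and Jak2 V617F at 2.11% without the highest doublet scores. The causes were not tested beyond the construction of each limit.

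Counts of genes past 2-fold, as higher and lower, moved most with the filter on low values. For Ikk2-CA against control they were 52 and 45 at 50 CPM and 730 and 737 with no filter. For Jak2 V617F against control they were 7 and 6, and 579 and 346. For the double mutant they were 21 and 22, and 470 and 888 against control, 5 and 18, and 360 and 824 against Ikk2-CA, and 19 and 15, and 368 and 1180 against Jak2 V617F. Thinned cells gave 305 lower for Ikk2-CA, 57 higher and 62 lower for Jak2 V617F, and for the double mutant 105 and 458 against control, 65 and 217 against Ikk2-CA and 477 lower against Jak2 V617F. Cells with no Xist UMI gave 87 and 39 for Jak2 V617F and 220 lower for the double mutant against control. Scaling moved the double mutant. TMM factors gave 106 and 66 against control, median-of-ratios factors 105 and 70, and the median gene 82 lower. Against Jak2 V617F, TMM and median-of-ratios factors each gave 54 lower, the median gene 80, matched Elane 212 and cells of 25 or more Elane UMIs per 10000 289.

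Of 1690 alternative values of list medians, 1633 were within 0.25 of the value as measured. The sign changed in 98. From medians of at least 0.5 in size it changed in 3, all of the secondary and tertiary granule median of the double mutant, -0.54 as measured, at 0.38 with matched Elane, 0.26 over the Elane classes under 100 and 0.17 in cells of 25 or more Elane UMIs per 10000. Of 4995 alternative values of named genes, 222 changed sign and 17 of these reversed a 2-fold difference. Against control with thinned cells, the double mutant's log2 ratio was 0.13 for Ccl3, -0.35 for Cd74, -1.78 for Hbb-bs and 1.39 for Ebf1, and the Jak2 V617F ratio was 0.16 for Ebf1 and -1.01 for Ehd3. Without the highest doublet scores the Jak2 V617F ratio was -1.35 for Ccl5 and -1.47 for Ehd3. In cells with no Xist UMI it was -1.67 for Ehd3, 3.22 for Prg2 and -0.35 for Thy1. In cells of 25 or more Elane UMIs per 10000 it was -0.04 for Ehd3. Averaged over cells it was 1.06 for Prg2, and Ebf1 in Ikk2-CA stood at -0.59. Cxcl2 in the thinned double mutant was 0.10 against Ikk2-CA and 1.82 against Jak2 V617F, and 0.14 against Jak2 V617F in cells of 25 or more Elane UMIs per 10000.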

Other observations

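Genes of the later granules were partly detected. Of 18 secondary and tertiary granule genes, 8 were measured, with median log2 ratios to control of -0.99 in Ikk2-CA (1 at least 2-fold higher and 4 lower), -0.19 in Jak2 V617F and -0.54 in the double mutant (1 lower). Of all genes compared, 1.88% were 2-fold higher and 2.04% lower in Ikk2-CA and 1.78% lower in the double mutant. The double-mutant median was 0.38 at control's Elane distribution and 0.17 in cells of 25 or more Elane UMIs per 10000. Cybb, the catalytic subunit of the phagocyte NADPH oxidase, was the member higher in Ikk2-CA, at 24.7 CPM in control, 65.3 in Ikk2-CA, 32.2 in Jak2 V617F and 44.4 in the double mutant. Wfdc21, a small secreted protein, was at 24.2, 2.03, 29.3 and 17.9 CPM.

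The NADPH oxidase and redox list (15 measured) had medians of 0.05, -0.06 and 0.02 in Ikk2-CA, Jak2 V617F and the double mutant. Glycolysis genes (14 measured) had medians of -0.25, -0.13 and 0.04, and genes of cell survival and death (11 measured) of -0.07, -0.05 and -0.24. Interferon gamma induced GTPases (6 measured) stood at -0.08, 0.14 and -0.32. Serpins and stefins (6 measured) stood at 0.10, -0.06 and 0.15, with Serpina3g the member past 2-fold in each mutant. The shares of all genes at least 2-fold higher were 1.88%, 0.408% and 0.877%.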
